A study of Mus musculus with 23 samples.

Results

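The Nr4a family of orphan nuclear receptors has 3 members, Nr4a1 (Nur77, NGFI-B), Nr4a2 (Nurr1) and Nr4a3 (Nor-1), and all 3 were measured among the 22180 genes that could be named on the arrays. They were chosen by gene symbol, with earlier results of the same arrays known, and each was read by 1 probe set that carries its symbol alone. The values are log2 intensities from whole-transcript microarrays of 23 mice, with 1 array per mouse. The mice were of the strain C57BL/6, about 15 weeks old, and the tissue was a micropunch of the ventral striatum's nucleus accumbens. About 5 weeks earlier an adeno-associated virus (AAV) had been injected into that region. It carried a short hairpin RNA against Nr1d1, a circadian repressor also known as REV-ERBα, in the knockdown groups and a scrambled hairpin in the control groups. Females numbered 5 controls and 6 with the knockdown virus, and males 6 of each. The labels give postpartum day 7 as the day of collection for every sample, the males included, so parental state was left aside. The promoter of the hairpin, the cells that took up the virus and the hour of collection are not given in the labels.

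Nr4a receptors bind DNA as transcription factors without a known physiological ligand, and their activity is set largely by how much of the protein is made. Nr4a1 and Nr4a3 are immediate early genes: a burst of neuronal firing raises their transcription within minutes through cyclic AMP, calcium and the factor CREB, as it does for Fos. Nr4a2 responds to activity too, and in the forebrain it is also a standing marker of deep cortical layer 6b, claustrum and endopiriform neurons. In the midbrain it is required for dopamine neurons. The retinoid X receptor RXR can pair with Nr4a1 and Nr4a2. Slc17a7 encodes the vesicular glutamate transporter VGLUT1 of cortical excitatory neurons, whose cell bodies lie outside the accumbens, and Fos is the standard mark of recent activity.

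The upstream DNA of the family is shown as a description, and whether it bears on the levels of the members was not tested. In the RefSeq promoter table (GRCm38.p6), all 3 held 4 copies of TGACG, the core of the cyclic AMP response element (CRE), counted on both strands, in the 250 bases before the start. Of the 32851 windows of that length in the table, 45 held at least 4 copies, which is 0.14%, and 17.77% held at least 1. Fos had 2 copies in its window and Slc17a7 had 0. The lines below run 5′ to 3′ on the strand of the gene, with these CRE cores in capitals. For Nr4a1 and Nr4a2 they give the whole window and for Nr4a3 a stretch of 30 bases with 2 of its 4 cores.
Nr4a1: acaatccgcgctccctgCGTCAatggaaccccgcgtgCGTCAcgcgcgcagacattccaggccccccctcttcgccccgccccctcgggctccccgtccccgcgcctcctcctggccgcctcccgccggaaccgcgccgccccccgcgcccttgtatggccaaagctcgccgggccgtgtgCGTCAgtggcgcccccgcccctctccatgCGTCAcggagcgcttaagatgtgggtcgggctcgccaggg
Nr4a2: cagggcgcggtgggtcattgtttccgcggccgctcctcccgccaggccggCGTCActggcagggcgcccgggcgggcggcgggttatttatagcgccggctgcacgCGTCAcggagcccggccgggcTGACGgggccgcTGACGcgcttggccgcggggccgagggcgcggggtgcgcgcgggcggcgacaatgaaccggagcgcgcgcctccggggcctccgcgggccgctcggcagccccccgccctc
Nr4a3: atgtCGTCAcatTGACGtctcgcattccag

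The Nr4a1 sequence is chr15:101266596-101266845 on the plus strand, inside the longest gene model (chr15:101253902-101274795) and just before the start of a shorter one. The Nr4a2 sequence is chr2:57124004-57124253 on the minus strand, directly before the gene (chr2:57106830-57124003). The Nr4a3 stretch is chr4:48045088-48045117 on the plus strand, which a longer model of the gene (chr4:48045078-48086447) already covers. The CRE cores of Nr4a1 lay 233, 213, 69 and 40 bases before its start, counted to their first base, and those of Nr4a2 200, 144, 123 and 111 bases. Those of Nr4a3 lay 231, 213, 205 and 147 bases before the start. The full palindrome TGACGTCA occurred 0 times in these windows, and 1.55% of all windows held it. The family's own monomer site, the NBRE (AAAGGTCA on both strands), also occurred 0 times against 1.34% of all windows. The windows were rich in G and C, with 74.4% for Nr4a1, 80% for Nr4a2 and 63.6% for Nr4a3 against a median of 52.4% over all windows, and the core contains a CG pair. A match to these letters is a description of the sequence, not a binding site.

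The arrays bear on the members in 3 ways that were measured first. Nr1d1, the target of the hairpin, stood at 10.04 ± 0.07 (SD, n = 5) in control and 9.99 ± 0.16 (n = 6) in knockdown females, and at 9.59 ± 0.20 and 9.58 ± 0.13 (n = 6 each) in males. The knockdown minus control difference was −0.05 (SE 0.09) in females and −0.01 (SE 0.09) in males, so the knockdown groups are named by their labels. The arrays had medians of 6.11 to 6.17 in females and 5.84 to 5.88 in males and look normalized in separate runs, so sex and processing cannot be told apart in a level. Slc17a7 divided the 12 male arrays: it was 4.64 to 6.17 in control replicates 3, 5 and 6 and knockdown replicate 6, and 8.01 to 10.34 in the other 8. It was 8.92 to 11.13 in the 11 female arrays. Results on the members that rest on those 4 arrays are given with and without them. The medium spiny neuron markers Penk and Drd1 were high in every array, at 12.41 to 12.93 and 9.82 to 10.72. The midbrain dopamine markers were uneven. Slc6a3 stood at 5.58 to 6.37, near the arrays' medians. Th at 6.72 to 7.4, Ddc at 6.44 to 7.19 and Slc10a4 at 7.0 to 7.76 lay above the medians. Slc18a2 at 5.18 to 6.08, Pitx3 at 4.92 to 5.6 and En1 at 4.47 to 5.09 lay below those of their sex.

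Nr4a1, which links firing to transcription in most forebrain neurons, had a narrow spread in knockdown females and a wider one in the other groups. In the control females it was 9.19, 9.50, 10.39, 10.28 and 9.51 in replicates 1 to 5. In the knockdown females it had a lowest value of 9.83, a median of 10.07 and a highest of 10.22. The knockdown females all lay above the control mean, but 2 of the 5 controls lay above all of them, so the groups overlapped. In males it ran from 8.51 through a median of 9.12 to 9.94 in controls and from 8.83 through 9.42 to 9.80 in knockdown. The male knockdown arrays lay within the span of the male controls. Group means were 9.77 ± 0.53 (SD, n = 5) and 10.07 ± 0.14 (n = 6) in females, and 9.20 ± 0.55 and 9.31 ± 0.39 (n = 6 each) in males.

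Nr4a2, the member that also marks deep cortical and claustral neurons, varied most in males. The control females were at 8.19, 8.29, 9.26, 8.79 and 8.60, and the knockdown females ran from 8.51 through a median of 8.87 to 9.52. The male controls ran from 6.33 through 7.08 to 9.33, a range of 3.0, and the male knockdown arrays from 6.59 through 8.22 to 8.93. The lowest values were those of the arrays low in Slc17a7. Nr4a2 was 6.33 to 6.83 in those 4 and 7.33 to 9.33 in the other 8 males, without overlap. The share of all genes that separates these arrays likewise is not given here. Means were 8.63 ± 0.43 (n = 5) and 8.94 ± 0.42 (n = 6) in females, and 7.55 ± 1.21 and 8.10 ± 0.86 (n = 6 each) in males.

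Nr4a3, the third member and an early gene like Nr4a1, was tightly grouped in the knockdown females. The control females were at 7.94, 7.95, 8.99, 8.34 and 8.32, and the knockdown females ran from 8.62 through 8.70 to 8.93. Of the 5 controls, 4 lay below every knockdown female and 1 lay above them all. The male controls ran from 7.22 through 7.49 to 8.68 and the male knockdown arrays from 7.36 through 8.19 to 8.36. In the 4 arrays low in Slc17a7 it was 7.40 to 7.49, and the other 8 males, at 7.22 to 8.68, reached both below and above that span. Means were 8.31 ± 0.43 (n = 5) and 8.73 ± 0.11 (n = 6) in females, and 7.78 ± 0.58 and 7.95 ± 0.45 (n = 6 each) in males. In each sex the mean of every member was higher in knockdown than in control, and the groups overlapped.

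**Figure D1:**
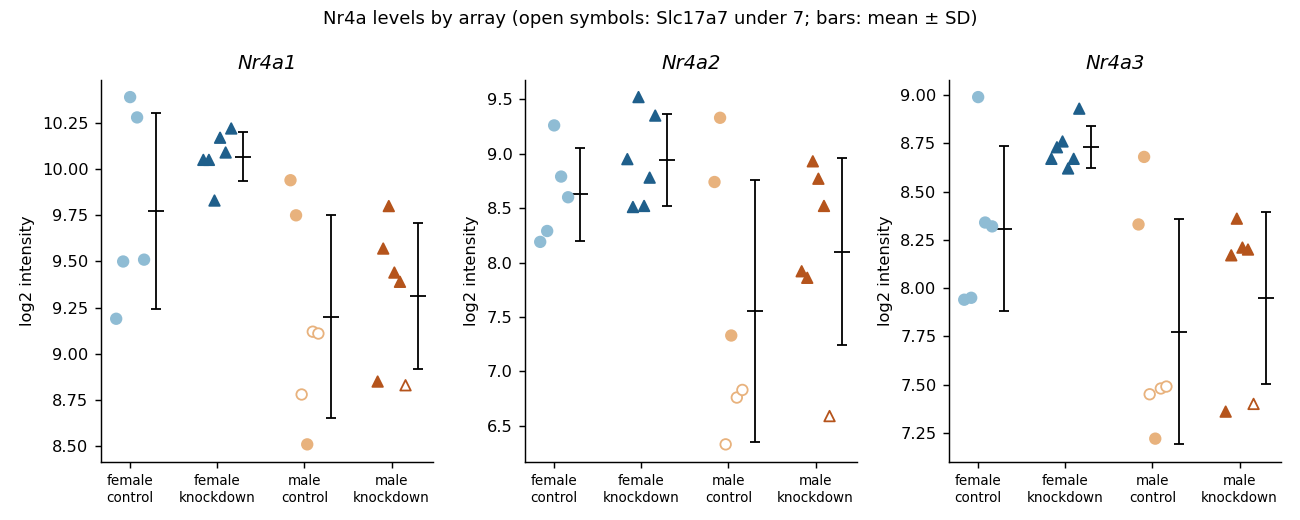
Log2 intensity of Nr4a1, Nr4a2 and Nr4a3 (y axes, separate scales) by group (x axis); each point is 1 array, open symbols are the 4 male arrays with Slc17a7 under 7, and the black bar beside each group is its mean ± SD. Knockdown and control groups overlap for every member, and the open symbols are the lowest male values of Nr4a2, at 6.33 to 6.83.

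The part of each member that followed cortical Slc17a7 and the part that followed Fos were separated within groups. Each value was taken as its deviation from the mean of its group, and the deviations of a member were fitted on those of Slc17a7 and Fos at once by least squares. The choice of these genes rests on the same arrays, so slopes and shares are descriptions without a test. Nr4a1 went with Fos, Nr4a2 went with Slc17a7, and Nr4a3 went with both in part. Deviations of Slc17a7 and Fos were themselves related (r = 0.76, rho = 0.74 over the 19 arrays that are not low in Slc17a7), so a large share of the variance could be assigned to neither alone.

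Nr4a1 rose by 0.96 (SE 0.18) log2 units per log2 unit of Fos at equal Slc17a7, and by 0.02 (SE 0.04) per unit of Slc17a7 at equal Fos, over 23 arrays. Of its within-group variance, 40.9% went with Fos only, 0.465% with Slc17a7 only and 34.3% with both, with 24.3% left. A part counts as only that of a covariate if it is lost when the covariate is dropped. Fitted without Slc17a7, Fos accounted for 75.2%. Over the 19 arrays the slope on Fos was 1.03 (SE 0.25) and that on Slc17a7 −0.01 (SE 0.12), with shares of 32.4%, 0.0176% and 42.2%. The slope on Fos was 1.15 (SE 0.37) in the 11 female arrays and 0.95 (SE 0.21) in the 12 male arrays, so it was close to 1 in both sets. In the 8 male arrays with high Slc17a7 it was 0.78 (SE 0.37).

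Nr4a2 showed the opposite division. It rose by 0.43 (SE 0.06) per log2 unit of Slc17a7 and by 0.32 (SE 0.25) per unit of Fos over 23 arrays. Of the within-group variance, 43.0% went with Slc17a7 only, 1.26% with Fos only and 42.1% with both, with 13.6% left. Fitted without Slc17a7, Fos accounted for 43.4%. Without the 4 low arrays the slope on Slc17a7 was 0.64 (SE 0.15) and that on Fos −0.04 (SE 0.32), with shares of 33.0% and 0.0321%. The slope on Slc17a7 was 0.53 (SE 0.19) in females, 0.40 (SE 0.07) in males and 0.82 (SE 0.28) in the 8 males. That on Fos was −0.11 (SE 0.43), 0.53 (SE 0.36) and −0.17 (SE 0.52) in the same order. The slope on Slc17a7 was no smaller within the arrays rich in Slc17a7 than across all of them.

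Nr4a3 lay between the other two. Its slope was 0.11 (SE 0.05) on Slc17a7 and 0.59 (SE 0.22) on Fos over 23 arrays. The within-group SD was 1.59 for Slc17a7 and 0.36 for Fos. Per SD of the covariate the slopes of Nr4a3 were 0.17 and 0.21. Of the variance, 9.41% went with Slc17a7 only, 15.5% with Fos only and 39.5% with both, with 35.6% left. Over 19 arrays the slopes were 0.17 (SE 0.16) and 0.52 (SE 0.32), with shares of 4.0% and 9.28% and 46.1% left, and both slopes within 2 SE of 0. In the female arrays 67.3% of its variance was left, the highest share of the 3 members. With the mean of the other early genes in place of Fos, its slope on Slc17a7 was −0.01.

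Differences in slope between members are descriptions too, without a test, since the choice of genes rests on the same arrays. Nr4a1 minus Nr4a2 was −0.40 (SE 0.05) on Slc17a7 and 0.64 (SE 0.24) on Fos over 23 arrays, and −0.65 (SE 0.13) and 1.07 (SE 0.27) over 19. Nr4a2 exceeded Nr4a3 on Slc17a7 by 0.32 (SE 0.04) over 23 arrays and 0.48 (SE 0.10) over 19. Nr4a1 exceeded Nr4a3 on Fos by 0.37 (SE 0.15) and 0.51 (SE 0.20). In males the Fos differences were smaller relative to their errors. Nr4a1 minus Nr4a2 was 0.42 (SE 0.33) in the 12 male arrays and 0.95 (SE 0.51) in the 8 high in Slc17a7. Nr4a1 minus Nr4a3 was 0.21 (SE 0.18) and 0.25 (SE 0.34) there. In the 11 female arrays the 2 differences were 1.26 (SE 0.35) and 0.79 (SE 0.26).

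**Figure D2:**
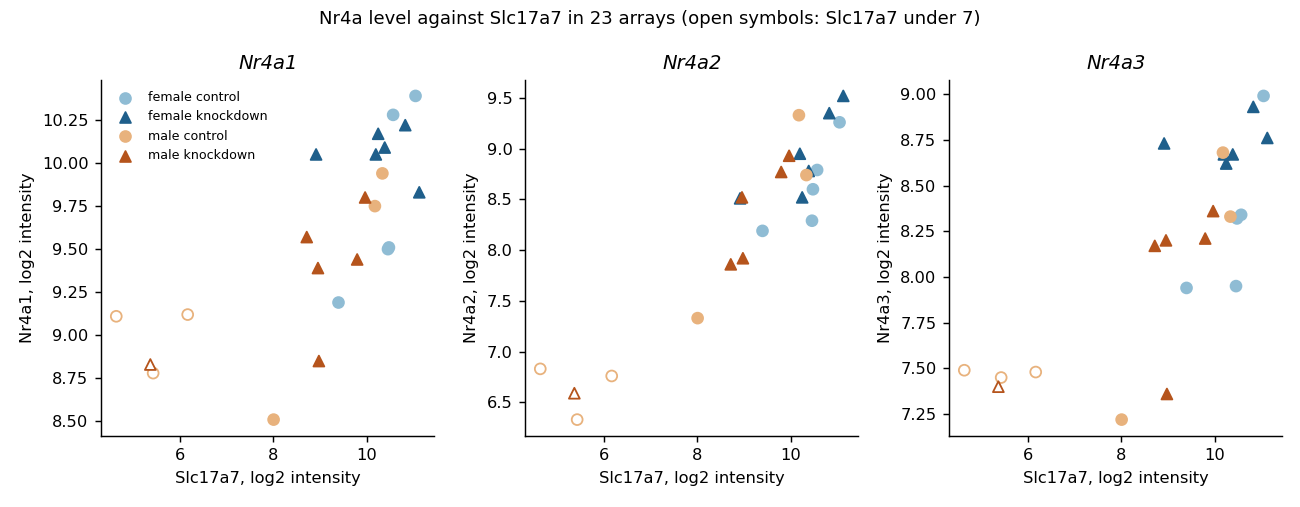
Log2 intensity of each member (y axes) against that of Slc17a7 (x axes) in 23 arrays, coloured by group, with the 4 male arrays low in Slc17a7 as open symbols. Nr4a2 climbs with Slc17a7 through all groups, while Nr4a1 in the open symbols, at 8.78 to 9.12, lies within the span of the other males.

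**Figure D3:**
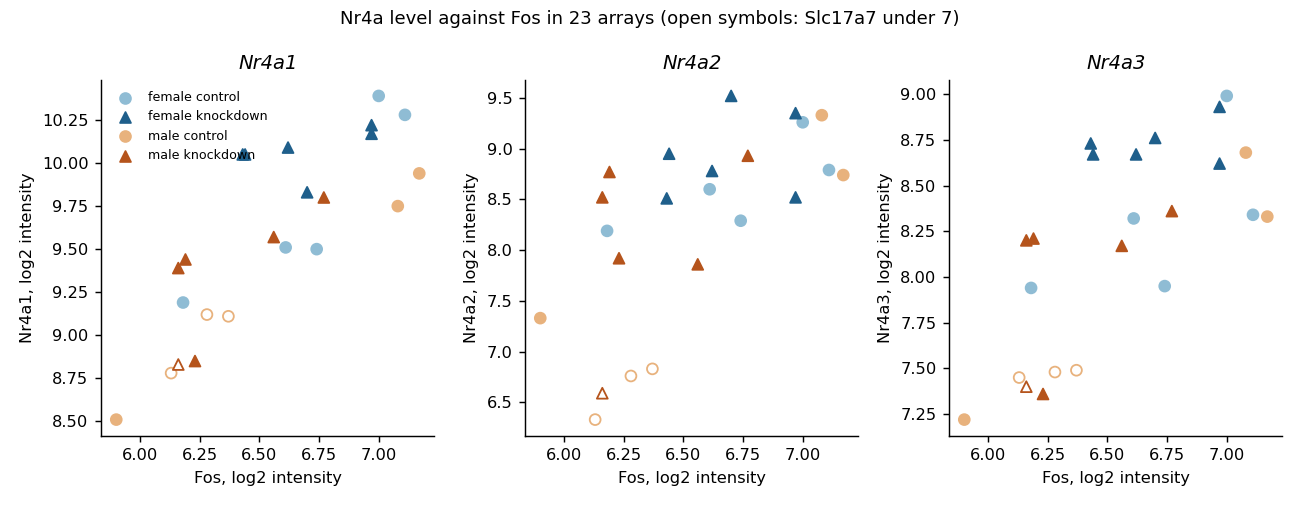
Log2 intensity of each member (y axes) against that of Fos (x axes) in the same 23 arrays, with the same symbols. Nr4a1 climbs with Fos by about 1 log2 unit per unit, and for Nr4a2 the 4 open symbols, at 6.33 to 6.83, lie under arrays of like Fos.

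**Figure D4:**
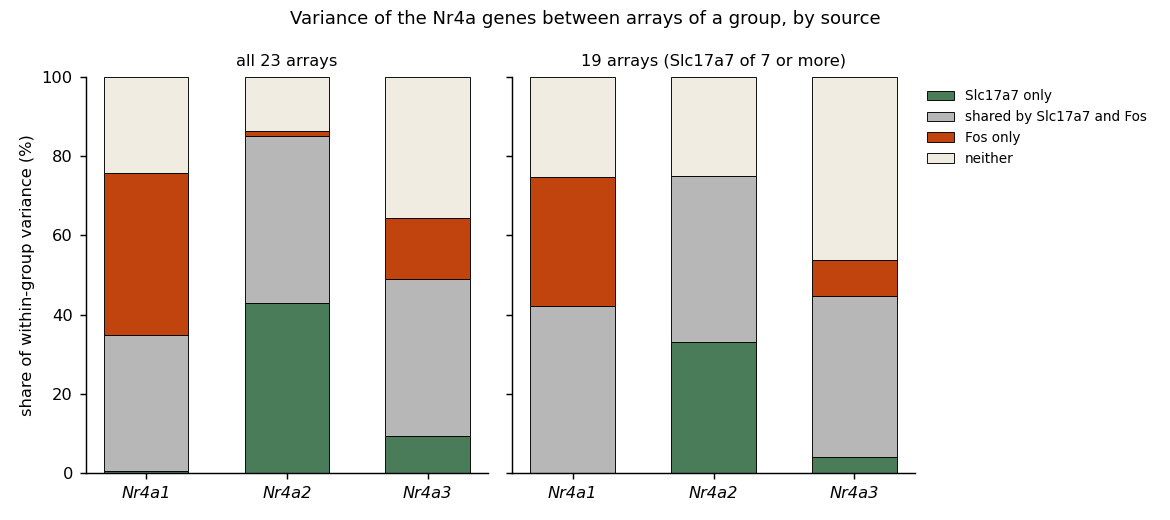
Share of the within-group variance of each member (y axis, percent) that goes with Slc17a7 only, with both, with Fos only or with neither, in all 23 arrays (left) and in the 19 arrays with Slc17a7 of 7 or more (right). The part of Fos only is 40.9% and 32.4% for Nr4a1, and the part of Slc17a7 only is 43.0% and 33.0% for Nr4a2.

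Correlations of deviations from the group means are given over the 19 arrays, since the male arrays fall into separate clusters of Slc17a7, and as descriptions. Nr4a2 correlated with Slc17a7 at r = 0.87 (rho = 0.88, and r = 0.84 without the 2 arrays farthest from the median of Slc17a7). Nr4a1 correlated with Fos at r = 0.86 (rho = 0.80, and r = 0.75 without 2 arrays). Nr4a3 stood at r = 0.71 (rho = 0.63) with Fos and r = 0.67 (rho = 0.70) with Slc17a7. Ranked among 22179 other genes over 19 arrays, Nr4a1 was the gene of rank 4 by correlation with Fos, and Nr4a2 was at rank 142 with Slc17a7. Over 23 arrays these ranks were 2 and 6. The ranks of Nr4a2 with Fos were 380 and 302 over 19 and 23 arrays, and those of Nr4a1 with Slc17a7 were 861 and 854.

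The members also moved with each other. Over 19 arrays r was 0.87 for Nr4a1 with Nr4a3, 0.85 for Nr4a2 with Nr4a3 and 0.70 for Nr4a1 with Nr4a2. After the Slc17a7 and Fos parts were removed, r was still 0.78, 0.80 and 0.57 for the same pairs, so what was left of the members was still correlated. The arrays of each sex look normalized together, which the labels do not state, and 1 probe set per gene was read.

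Lists of marker genes were set beside the members in the same way. With the layer 6b, claustrum and endopiriform list (8 of 9 genes measured, among them Ccn2, Nxph4 and Cplx3), r over 19 arrays was 0.84 (rho = 0.91) for Nr4a2, 0.64 for Nr4a3 and 0.49 for Nr4a1. With the cortical excitatory list without Slc17a7 it was 0.84, 0.74 and 0.73 in that order. With the mean of the early activity genes without Fos it was 0.83, 0.88 and 0.93. Nr4a2 had the highest r for both cortical lists over the 19 arrays and over all 23. In the 8 males high in Slc17a7, the cortical list without Slc17a7 stood at 0.93 with Nr4a1, 0.83 with Nr4a2 and 0.82 with Nr4a3. For the early genes Nr4a1 and Nr4a3 had no settled order, with rho of 0.86 and 0.88 over the 19 arrays and r of 0.89 and 0.90 over all 23. The cortical list (10 of 11 genes measured, Slc17a7 included) had a mean level of 7.53 to 8.10 in control and 7.37 to 8.25 in knockdown females, and 6.25 to 8.19 and 6.37 to 7.81 in males. In bulk tissue, fewer cells of a type and less RNA per cell cannot be told apart.

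The knockdown minus control difference of the members was positive in both sexes and did not pass the threshold of an adjusted p of 0.05 in either. In females it was 0.29 (SE 0.24) for Nr4a1, 0.31 (SE 0.46) for Nr4a2 and 0.42 (SE 0.24) for Nr4a3, with limma adjusted p-values of 0.912, 0.959 and 0.879. For Nr4a3 this is 1.34-fold, with a 95% interval of −5.34% to 89.6%. Leaving out 1 female array moved Nr4a1 between 0.15 (without control replicate 1) and 0.45 (without control replicate 3), Nr4a2 between 0.20 (without knockdown replicate 3, or control replicate 1) and 0.47 (without control replicate 3), and Nr4a3 between 0.33 and 0.59. Knockdown arrays lay above the control mean in 6 of 6 for Nr4a1 and Nr4a3 and 4 of 6 for Nr4a2. In males the differences were 0.11 (SE 0.23), 0.55 (SE 0.43) and 0.18 (SE 0.23), with 4, 5 and 4 of 6 knockdown arrays above the control mean and a limma adjusted p of 0.996 for each. Leaving out 1 male array gave 0.30 (without control replicate 3) to 0.90 (without control replicate 2) for Nr4a2, with 0.85 without knockdown replicate 6. It gave 0.064 (without control replicate 4) to 0.36 (without control replicate 2) for Nr4a3, and −0.027 (without control replicate 4) to 0.26 (without control replicate 1) for Nr4a1. The average over both sexes was 0.20 (SE 0.17), 0.43 (SE 0.32) and 0.30 (SE 0.17), with a limma adjusted p of 0.980. The male minus female difference of the effect was −0.18 (SE 0.33), 0.23 (SE 0.63) and −0.25 (SE 0.33), so no difference between the sexes was resolved.

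The background of these contrasts was as follows. Of the 41345 probe sets tested, 0% were past the adjusted threshold in each contrast, namely females, males, the average and male minus female. At an unadjusted p under 0.05 the shares were 5.86%, 4.71%, 4.71% and 5.7% in that order, and 0 of the 3 members were among them in any of the 4. Of all probe sets, 52.8% were higher in knockdown in females, 49.7% in males and 52% in the average, against 3 of 3 members each time. In the male minus female contrast 47.5% were positive, against 1 of 3. The members were chosen with these values known, so their common sign supports nothing.

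The male difference of Nr4a2 went with Slc17a7. Slc17a7 itself was 1.17 (SE 0.85) higher in the knockdown males, and 3 of the 4 low arrays were controls. At the fitted slopes, 0.50 of the Nr4a2 difference of 0.55 was the part of Slc17a7, −0.05 the part of Fos and 0.09 was left. With the levels of Slc17a7 and Fos as covariates in limma, the male difference is this remainder by construction. It was 0.09 (SE 0.19) for Nr4a2, 0.22 (SE 0.14) for Nr4a1 and 0.14 (SE 0.16) for Nr4a3. Without the 4 low arrays the measured male difference was −0.07 (SE 0.37) for Nr4a2, 0.01 (SE 0.29) for Nr4a1 and −0.02 (SE 0.28) for Nr4a3. The measured differences of Nr4a2 and Nr4a3 thus lost their positive sign. In those 8 male arrays Fos was 0.33 lower in knockdown than in control. Its part was −0.34 of the Nr4a1 and −0.17 of the Nr4a3 difference, and 0.35 and 0.19 were left, with 0.06 left for Nr4a2. Without them the average over both sexes fell to 0.12 (SE 0.24) for Nr4a2 and to 0.20 (SE 0.18) for Nr4a3.

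The female differences did not go with either covariate. Slc17a7 differed by −0.11 (SE 0.89) and Fos by −0.04 (SE 0.21) between the female groups. At the fitted slopes the 2 parts together were small and negative, and 0.33 of the difference in Nr4a1, 0.37 in Nr4a2 and 0.46 in Nr4a3 was left. With the levels of both as covariates in limma, the differences are these remainders by construction, with SE 0.13, 0.18 and 0.15. Their unadjusted limma p-values were 0.0164, 0.0515 and 0.00741, and the adjusted values were 0.782, 0.796 and 0.782, so none passed. The covariates were chosen on the same arrays, and across the alternatives the adjusted p of the female Nr4a3 difference ran from 0.65 to 0.998.

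**Figure D5:**
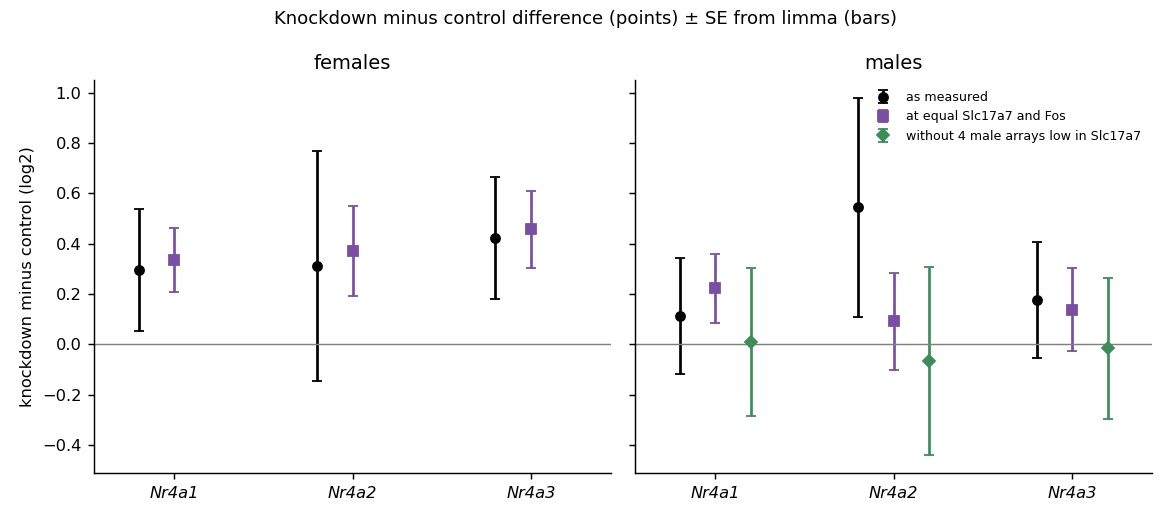
Knockdown minus control difference of each member in log2 units (y axis) in females (left) and males (right), as measured, with the levels of Slc17a7 and Fos as covariates and, in males, without the 4 arrays low in Slc17a7; bars are ± SE from limma. In females all values lie between 0.29 and 0.46, and in males the Nr4a2 value goes from 0.55 to 0.09 and −0.07.

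Other genes of the activity pathway, from lists chosen with earlier results known, gave the setting. Of 21 early activity genes, the transcription factors and synaptic genes induced with Fos, 15 were higher in knockdown in females and 10 in males, with medians of 0.08 and −0.02. Of all 22180 named genes, 11103 were higher in females and 11403 in males, with medians of 0.00033 and 0.0033. Of the early genes, 0 of the 21 passed the threshold. In females the smallest p belonged to Csrnp1 at 0.17 (SE 0.08), a nuclear factor, and Maff at 0.13 (SE 0.06), a small basic leucine zipper protein. In males it belonged to Maff at 0.20 (SE 0.06), with an unadjusted limma p of 0.00429 and an adjusted p of 0.996, and to the neuronal factor Npas4 at 0.28 (SE 0.16). Of 24 late response and feedback genes, 10 were higher in females and 20 in males, with medians of −0.0038 and 0.05. In males the smallest p belonged to the clock gene Per1 at 0.17 (SE 0.07) and the G protein regulator Rgs2 at 0.12 (SE 0.06), and in females to Ppp1r15a at −0.12 (SE 0.07) and Gadd45b at −0.16 (SE 0.10), both stress-inducible. None of the 24 passed. The male differences of these lists, and of those upstream and downstream below, are given over all 12 male arrays only. Of the 4 male arrays low in Slc17a7, 3 were controls.

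Upstream of the members, 15 of 18 listed factors were measured, namely CREB, its co-activators, the MEF2 and SRF families and their kinases. Of these 11 were higher in females and 12 in males, with medians of 0.03 and 0.01, and 0 passed. The background for these and the following counts is 11103 of 22180 named genes higher in females and 11403 in males. The smallest p in females belonged to the CREB co-activator Crtc1 at 0.16 (SE 0.08) and to Mef2d at 0.09 (SE 0.07), and in males to Creb1 at 0.09 (SE 0.06) and to Elk1, a partner of SRF, at 0.10 (SE 0.07). Among the 3 RXR partners, Rxrg, the form typical of the striatum, was 0.29 (SE 0.11) higher in knockdown males, with an unadjusted limma p of 0.0157 and an adjusted p of 0.996. Rxra was at 0.065 (SE 0.06) in those males. Rxrb was at −0.08 (SE 0.08) and Rxra at −0.05 (SE 0.06) in females. Downstream, 10 of 11 genes known as Nr4a targets in other tissues were measured, and 4 were higher in females and 3 in males, with medians of −0.02 and −0.04. The smallest p in females belonged to the dopamine transporter Slc6a3 at −0.15 (SE 0.08) and the vesicular monoamine transporter Slc18a2 at −0.095 (SE 0.09). In males it belonged to the muscle enolase Eno3 at −0.14 (SE 0.07) and to Slc18a2 at −0.16 (SE 0.08). None of these lists held a gene past the threshold in any of the 4 contrasts.

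The early genes were divided by Slc17a7 and Fos in the same way as the members. Over the 20 early genes other than Fos, the share that went with Fos only had a median of 12.8% over 23 arrays. It reached 39.2% in Btg2, an antiproliferative early gene. Nr4a1, at 40.9%, lay above all 20, whereas over 19 arrays its 32.4% lay below Junb at 36.5%. The share that went with Slc17a7 only had a median of 4.16% over 23 arrays. It reached 42.8% in Homer1, a synaptic scaffold, next to 43.0% for Nr4a2. Over 19 arrays the highest early gene reached 18.0%, against 33.0% for Nr4a2. In the late list Rgs4, a G protein regulator, had 47.8% over 23 arrays, above Nr4a2. Dusp6, an ERK phosphatase, had 35.5% over the 19 arrays, also above Nr4a2.

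The genes with the most similar pattern were taken by the Pearson correlation of within-group deviations over 23 arrays, with the value over 19 arrays beside it. For Nr4a1 they were Arc (0.90 and 0.89), Egr2 (0.88 and 0.90), Fos (0.87 and 0.86), Midn (0.84 and 0.86) and Dusp1 (0.84 and 0.87). Arc encodes a synaptic protein, Egr2 a zinc finger factor and Dusp1 a MAP kinase phosphatase, and all are induced by activity. For Nr4a2 they were Vxn (0.96 and 0.91), Cck (0.95 and 0.90), Sv2b (0.94 and 0.89), Bmp3 (0.93 and 0.88) and Prss12 (0.93 and 0.86). Cck is a neuropeptide abundant in cortex, and Sv2b is a synaptic vesicle protein. For Nr4a3 they were Egr1 (0.89 and 0.93), Egr2 (0.88 and 0.91), Fam171b (0.86 and 0.83), Sh3rf1 (0.86 and 0.82) and Dusp6 (0.86 and 0.83). The nearest genes of Nr4a1 and Nr4a3 shared Egr2, and those of Nr4a2 shared none with either.

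After the parts of Slc17a7 and Fos were taken out of both sides, the 3 nearest genes were Fgd5, Gm1943 and Zdhhc2 for Nr4a1 (0.81 each over 23 arrays). They were Shank2, Lexis1 and Ube2e2 for Nr4a2 (0.85, 0.85 and 0.78), and Egr2, Pds5a and Ints6 for Nr4a3 (0.82, 0.80 and 0.76). Of these 9, Egr2 was the single gene of the early activity list. These values are the highest among all named genes and are descriptions.

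Marker lists of other cell types, which the choice of members did not use, were tested against the members over deviations from group means. The test permuted arrays within groups, with 100000 permutations, two-sided, and p-values were adjusted over 21 pairs of 3 members and 7 lists. Over 23 arrays 0 of the 21 pairs passed by r or by rho, and 18 of the 21 correlations were negative. The microglia list stood at r = −0.51 (rho = −0.51) with Nr4a1, −0.41 (rho = −0.30) with Nr4a2 and −0.54 (rho = −0.54) with Nr4a3. The permutation p of the last was 0.0115, adjusted 0.0808. The endothelium list stood at −0.50, −0.45 and −0.46 in that order, and the medium spiny neuron list at −0.20, −0.09 and −0.12.

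Without the 4 arrays low in Slc17a7, an alternative chosen after the data were seen, 2 of 21 pairs passed by Pearson's r and 5 by Spearman's rho. The former were Nr4a3 with microglia (r = −0.63, rho = −0.64, adjusted permutation p = 0.0417, and r = −0.55 without the 2 farthest arrays) and Nr4a2 with endothelium (r = −0.71, rho = −0.72, adjusted permutation p = 0.0417, and r = −0.62). Both passed by rho too, with Nr4a3 and Nr4a1 with endothelium (rho = −0.70 and −0.62) and Nr4a1 with striosome (rho = −0.61), at adjusted permutation p-values of 0.0226 to 0.0393. In the 11 female arrays 4 pairs passed by r: Nr4a2 with the medium spiny neuron list (r = −0.81, rho = −0.76), Nr4a2 with endothelium (r = −0.81, rho = −0.76), Nr4a3 with endothelium (r = −0.63, rho = −0.86) and Nr4a3 with microglia (r = −0.64, rho = −0.66). Their adjusted permutation p-values were 0.0193 for Nr4a3 with endothelium and 0.0409 for the other three. By rho only Nr4a3 with endothelium passed (adjusted permutation p = 0.00567), and the other three stood at 0.0839 (both Nr4a2 pairs) and 0.112. In the 12 male arrays 0 passed by either measure. Within males Nr4a2 with the medium spiny neuron list was r = 0.11, the opposite sign to females. The positive r of 0.67 between Nr4a2 and the striatal matrix list over 23 arrays rested on Sv2b, which is also a cortical gene: without Sv2b it was −0.23.

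The midbrain dopamine list, whose neurons need Nr4a2 in the midbrain, moved against the members, given as a description. Over 19 arrays r was −0.71 (rho = −0.59) for Nr4a1, −0.73 (rho = −0.72) for Nr4a2 and −0.78 (rho = −0.74) for Nr4a3. Without the 2 farthest arrays it was −0.48, −0.65 and −0.71. In the 11 female arrays it went from −0.54, −0.60 and −0.65 to 0.19, −0.34 and −0.15 without 2 arrays. In the 12 male arrays it was −0.68, −0.80 and −0.86 without 2 arrays. Among its genes, r with Nr4a2 was −0.59 for Ddc, which makes dopamine from its precursor, and −0.65 for the transporter Slc10a4, but −0.34 for Th, the rate-limiting enzyme. It was −0.49 for Slc18a2, −0.18 for Slc6a3, −0.04 for Pitx3 and 0.08 for En1, both developmental factors of these neurons, so not all 7 genes moved. Pitx3 stood at 0.26 with Nr4a1. The mean level of the 7 genes was 5.91 to 6.38 over all arrays, and the part of any 1 cell type in it was not tested.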

How the data were processed

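The authors deposited log2 intensities of 41345 probe sets on 23 arrays, made with Transcriptome Analysis Console per the submitters' processing notes. The software version, normalization and genome build were not given in the sources used here. Labelled cDNA came from 150 ng of total RNA, per the labels' protocols. Probe sets were named from the platform's annotation where it gave 1 symbol (23521 probe sets, 22180 genes, the probe set with the highest mean per gene). The number of arrays limits the precision.

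All arrays entered 1 linear model with 1 mean per group in limma 3.58.1 (R 4.3.3; 19 residual and 3.24 prior degrees of freedom), with Benjamini-Hochberg adjustment over all probe sets, two-sided, and a threshold of 0.05. Slopes, shares and correlations used Python 3.11.15 with numpy 2.4.6 and scipy 1.17.1. The share that goes with 1 covariate only is the variance lost when that covariate is dropped, and the shared part can be negative. The limma script was tested on simulated data.

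The members, gene lists and tests were chosen with earlier results of these data known. Named genes are the members, Slc17a7, Fos and Nr1d1, the 5 genes nearest to each member and the 3 nearest after removal of both covariates, and the 2 genes of smallest p in each list in females and in males; others were named after their values were seen. Listed genes without a probe set of their symbol alone were not used here. Alternatives were another normalization, array weights, brighter probe sets, a replicate block, covariates, list means, single sexes and leaving out arrays. Proteins were not analysed here.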

Additional observations from a re-analysis of the deposited data

Results flagged for a closer look

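Of 20 groups of 4 to 10 arrays examined for the members, Fos and Slc17a7, 1 had an extreme value far from the others by Dixon's criterion, which chance alone passes in about 1 of 20 groups. It was Slc17a7 in male knockdown replicate 6, at 5.37, while the other 5 male knockdown arrays were at 8.72 to 9.97. Nr4a2 was 6.59 in the same array, against 7.86 to 8.93 in the others.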

How the results depend on the processing

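The Nr4a differences stayed short of the adjusted threshold in every alternative fitted, and the replicate numbers did not pair the arrays (r of −0.10 to 0.14 between same-numbered control and knockdown arrays). With a replicate block the female Nr4a3 difference was 0.46 and the male Nr4a2 difference 0.55, and no call changed. The count of probe sets past the threshold, 0 in limma, became 1 in the male minus female contrast with array weights. With deviations of Slc17a7 and Fos as covariates it became 1 in males, 2 in the average and 1 in the male minus female contrast. Leaving out 1 array gave 0 to 1 in females (1 without knockdown replicate 1) and in males and the male minus female contrast (1 without male control replicate 1 or 5). The male minus female Nr4a2 effect turned to −0.28 with the levels as covariates and to −0.38 without the 4 arrays low in Slc17a7, which also gave −0.067 for Nr4a2 and −0.017 for Nr4a3 in males. Leaving out 1 array gave −0.012 to 0.59 for that effect, with male control replicate 3 as the array that turned it. It gave −0.027 to 0.26 for Nr4a1 in males and 0.40 to 0.50 for the slope of Nr4a2 on Slc17a7.

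The slope of Nr4a1 on Slc17a7 was −0.083 with the early list in place of Fos, −0.13 in females and 0.16 with Slc17a7 alone, and its slope on Fos was 1.15 in females. The slope of Nr4a2 on Slc17a7 was 0.36 with the early list, 0.53 in females, 0.52 with a replicate block and 0.64 without the 4 arrays. Its slope on Fos was −0.084 with the cortical list in place of Slc17a7, −0.11 in females, 0.020 with the block, −0.041 without the 4 arrays and 1.48 with Fos alone. For Nr4a3 the slope on Slc17a7 was −0.012 with the early list, 0.17 without the 4 arrays and 0.19 alone, and that on Fos was 0.36 in females and 0.88 alone.

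Correlations that changed sign were, in females, Nr4a2 with the striosome list (0.13) and the oligodendrocyte list (0.12) and the matrix list with Nr4a1 (−0.39), Nr4a2 (−0.14) and Nr4a3 (−0.19). In males they were the medium spiny neuron list with Nr4a2 (0.11) and Nr4a3 (0.084). With the Slc17a7 part removed they were the matrix list with Nr4a1 (−0.30) and the oligodendrocyte list with Nr4a2 (0.26) and Nr4a3 (0.14). Quantile normalization gave 0.0019 for Nr4a2 with the striosome list. For Nr4a1 with the matrix list r was −0.072 without the 4 arrays and −0.0071 without the 2 farthest. Without Sv2b the matrix list gave −0.49, −0.23 and −0.30 for the 3 members. The cause was not tested for any of these. Averaging the probe sets of a gene was not run, since each member has 1. Leaving out the 4 arrays and Sv2b was chosen after the data were seen.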
